A study of Rattus norvegicus with 60 samples.

Results

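DNA methylation in the developing hypothalamus was examined at 2864 regions of the rat genome that carried a methylated DNA immunoprecipitation (meDIP) peak in at least 10 of 12 hypothalami at postnatal day (P) 22 and in at most 2 of 12 hypothalami at P1. The regions were taken from 609781 merged peak regions on the 20 autosomes (Rn6 build), of which they made up 0.470%. In meDIP-seq, an antibody against 5-methylcytosine pulls down methylated DNA fragments and the fragments are sequenced, so that a peak marks a stretch in which methylated fragments pile up above the local background. The regions were chosen by the P1 and P22 peak counts, and the rise from P1 to P22 is therefore a description of the selection. The samples from P8 and P15, and the white blood cells (WBC), were not counted in it, though their peaks helped to set the bounds of the merged regions.

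The series compared female Sprague-Dawley offspring of 3 prenatal groups. Dams of the prenatal alcohol exposure (PAE) group were fed a liquid diet with ethanol while pregnant. Each pair-fed (PF) dam was given an ethanol-free liquid diet, with her ration set by the intake of a matched PAE dam, and Control (C) dams ate pellets of the ethanol-free diet without restriction. Hypothalami were collected at P1, P8, P15 and P22 and WBC at P22 from the same animals as the P22 hypothalami, with 4 animals per group, age and tissue and 60 samples in all. Littermates contributed to different ages, and the tests below had no term for litter and treated the animals as independent. Tissue was whole hypothalamus, so a change in the mix of cells and a change of methylation within cells cannot be told apart. No gene annotation of the Rn6 build was used here, and neither the place of a region relative to genes nor marker genes of the labelled tissues were assessed.

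DNA methylation is written on cytosines by the DNMT enzymes and is read by methyl-binding proteins, and in neurons and glia it helps to hold the pattern of gene activity of each cell type. The first postnatal weeks in the rodent brain are a period of glial growth, myelination and synapse formation, during which neurons also acquire methylation outside CG sites. The hypothalamus governs hormone release, feeding, temperature and the stress response, and leukocytes carry a methylation pattern of a different cell lineage.

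Sequencing depth ranged from 11910384 to 22156238 fragments per sample, with a mean of 14.4 M at P1, 17.2 M at P8, 19.3 M at P15, 17.2 M at P22 and 14.3 M in WBC. One PF WBC sample (PF 15), which the study removed because it grouped with the hypothalamus samples, was kept out of the WBC values and is given separately. All P22 hypothalami and all WBC samples were immunoprecipitated in meDIP round 1 and all P1, P8 and P15 samples in round 2, so age and round cannot be told apart between P22 and the younger ages. P15 and P8 shared meDIP round 2, and P22 hypothalamus and WBC shared round 1. DNA was extracted in rounds 1 and 2 for P15 and in rounds 3 and 4 for P8, so extraction round and age cannot be told apart in the comparison of P15 with P8.

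The mean shares of the regions with a peak at P8 and P15 lay between those at P1 and P22. A peak was present at a mean of 7.47% ± 2.52 (SD, n = 12) of the 2864 regions per sample at P1, 47.9% ± 9.68 (n = 12) at P8, 63.9% ± 8.37 (n = 12) at P15 and 90.1% ± 3.41 (n = 12) at P22. The first and last of these values follow from the selection, and so in part do the steps from P1 to P8 and from P15 to P22. The 12 samples at P8 ran from 32.6% to 64.8% with a median of 50.6%, and the 12 samples at P15 from 50.7% to 75.3% with a median of 66.1%. The P8 and P15 samples therefore overlapped. Over all merged regions, the share with a peak moved the other way, from 30.9% ± 2.50 at P1 and 31.3% ± 2.31 at P8 to 27.5% ± 3.62 at P15 and 24.9% ± 1.59 at P22.

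**Figure D1:**
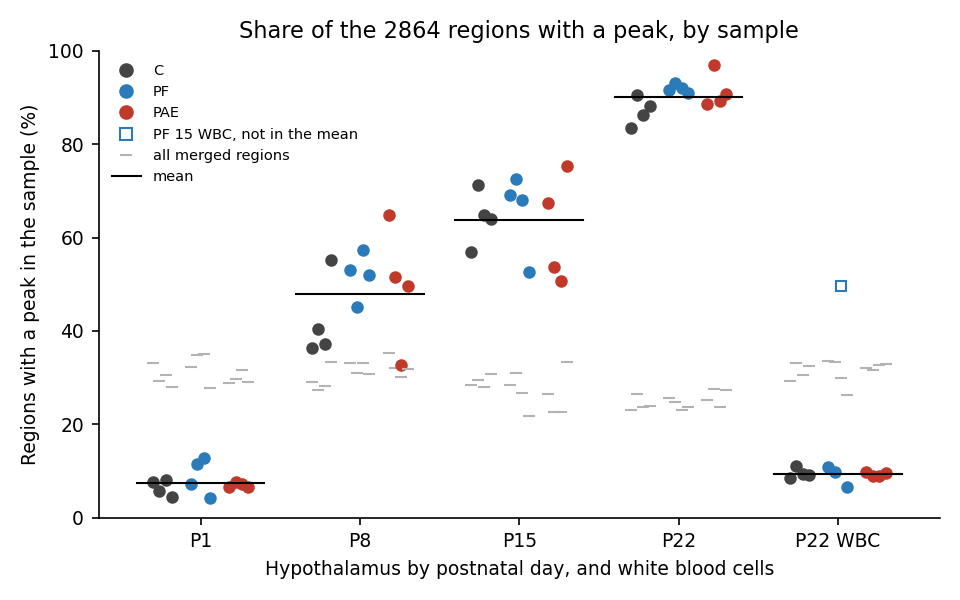
Share of the 2864 regions with a peak in each sample (percent, vertical axis) by age and tissue, coloured by prenatal group, with black lines for the means and grey dashes for the share of all merged regions in the same sample. The regions rose from a mean of 47.9% at P8 to 63.9% at P15, and the 11 WBC samples lay between 6.67% and 11.1%, whereas the PF 15 WBC sample, drawn as an open square, lay at 49.7%.

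The 2 DNA extraction rounds at P8 gave means of 46.9% (n = 6) and 49.0% (n = 6), and the 2 rounds at P15 gave 60.3% (n = 6) and 67.5% (n = 6). Breeding cohorts differed by less than their spread at P8, where Dev-4 offspring had a mean of 48.6% ± 10.2 (SD, n = 6) and Dev-5 offspring 47.3% ± 10.1 (n = 6). All 12 P15 samples came from the Dev-4 cohort. At P22, the Dev-3 cohort (90.7% ± 4.49, n = 6) and the Dev-4 cohort (89.5% ± 2.12, n = 6) differed by less than their spread.

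Individual regions followed several courses. Of the 2864 regions, 1361 (47.5%) had a peak in at least 6 of 12 samples at both P8 and P15 and are called early, 914 (31.9%) reached 6 of 12 samples at P15 but not at P8 and are called middle, and 426 (14.9%) stayed below 6 of 12 at both ages and are called late. The remaining 163 (5.69%) had a peak in at least 6 samples at P8 and in fewer than 6 at P15. A peak was present in more samples at P15 than at P8 at 1977 regions (69.0%, against 24.8% of all merged regions) and in fewer samples at 515 (18.0%, against 40.0% of all merged regions). Across the 4 ages, the number of samples with a peak never fell at 2236 regions (78.1%, against 24.9% of all merged regions, part of which the selection fixes).

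**Figure D2:**
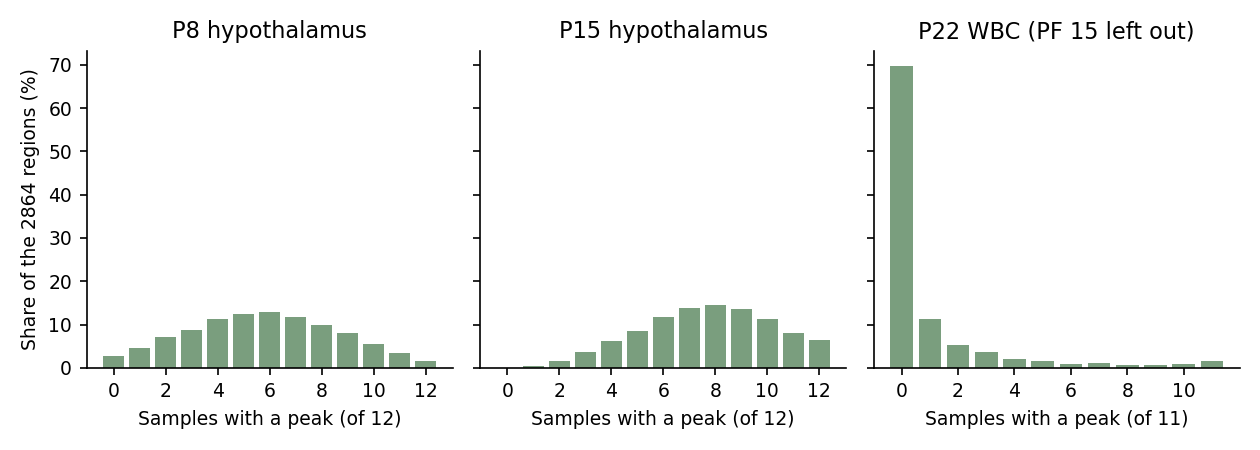
Number of samples with a peak (horizontal axis) for the 2864 regions at P8, P15 and in P22 WBC, as a share of the regions (percent, vertical axis). The P8 and P15 distributions were broad and centred on medians of 6 and 8 of 12 samples, whereas 69.8% of the regions had no peak in any of the 11 WBC samples (37.7% of all merged regions had none).

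Few regions were at either extreme at P8 and P15. At P8, 78 regions (2.72%, against 32.4% of all merged regions) had no peak in any sample and 44 (1.54%, against 9.69%) had one in all 12. At P15, 2 regions (0.0698%, against 32.3%) had no peak in any sample. A peak in all 12 P15 samples was present at 184 (6.42%), near the 6.23% of all merged regions.

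Peaks at these regions were taller at P15 than at P8. Height was taken as the number of fragments at the highest point of a peak, scaled between libraries, and a region without a peak was set to a floor of 6.36 fragments. The median scaled height of the peaks present at these regions was 10.9 fragments ± 0.837 (SD, n = 12 samples) at P1, 12.4 ± 0.437 at P8, 15.9 ± 0.946 at P15 and 18.7 ± 1.36 at P22. Within each library, that median stood at percentile 17.1 of all peak heights at P1, 26.6 at P8, 36.8 at P15 and 50.3 at P22, as means over 12 samples. The median fold enrichment of the same peaks was 3.78 ± 0.152 at P1, 3.97 ± 0.177 at P8, 3.83 ± 0.0659 at P15 and 4.29 ± 0.229 at P22, while that of all peaks was 4.81, 4.57, 4.05 and 4.23. These medians cover called peaks only. In the test of P15 vs. P8 described next, run on fold enrichment in place of height and with samples without a peak at a floor, 22 of the 2851 regions tested were higher at P15 (0.0193% of all tested regions were) and 0 lower at an FDR < 0.05, with a median difference of 0.29 on the log2 scale against -0.07 for all tested regions. The P1 and P22 heights are tied to the selection, which also set the constant regions apart, and are given as a description. The 56486 regions found in 10 or more samples at both P1 and P22, called constant here, were taller at P22 (median over regions of the mean scaled height 23.3 fragments, against 18.7) and longer (median 1108.5 bp, against 884 bp). All merged regions had a median length of 617 bp. A region spans the merged peaks of all samples, so its length can only grow as peaks of more samples join it.

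The change between P8 and P15 was tested on log2 scaled height with limma, with prenatal group and breeding cohort as covariates, over the 331568 regions at which 3 or more of these 24 samples had a peak. Since all P15 animals were of the Dev-4 cohort, the cohort term leaves the fitted difference as that between 12 P15 and the 6 Dev-4 P8 animals, and the 6 Dev-5 P8 animals enter only the estimate of the spread. Of the 2864 regions, 2851 were tested. At an FDR < 0.05, 49 of them (1.72%) were higher at P15, against 0.0440% of all tested regions (146 of 331568), and 0 were lower, against 0.0184% (61 of 331568). At an unadjusted p < 0.05, 728 were higher (25.5%, against 2.63% of all tested regions) and 15 lower (0.526%, against 5.05%). The median P15 minus P8 difference was 0.36 on the log2 scale for these regions (interquartile range 0.15 to 0.57) and -0.01 for all tested regions (-0.21 to 0.16), and 2441 of the 2851 differences (85.6%) were positive, against 48.2% of all.

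Without the cohort term, which brings in all 12 P8 animals, 116 were higher (4.07%, against 0.129% of all tested regions). Leaving out the 3 P8 animals numbered 6 reduced the 49 to 20, and leaving out the 3 P15 animals numbered 11 reduced them to 29. Fisher's exact test on peak presence alone, with 12 samples per age, called 0 regions in either direction at an FDR < 0.05, with 324 of the 2851 higher (11.4%, against 0.777% of all tested regions) and 10 lower (0.351%, against 3.58%) at an unadjusted p < 0.05.

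**Figure D3:**
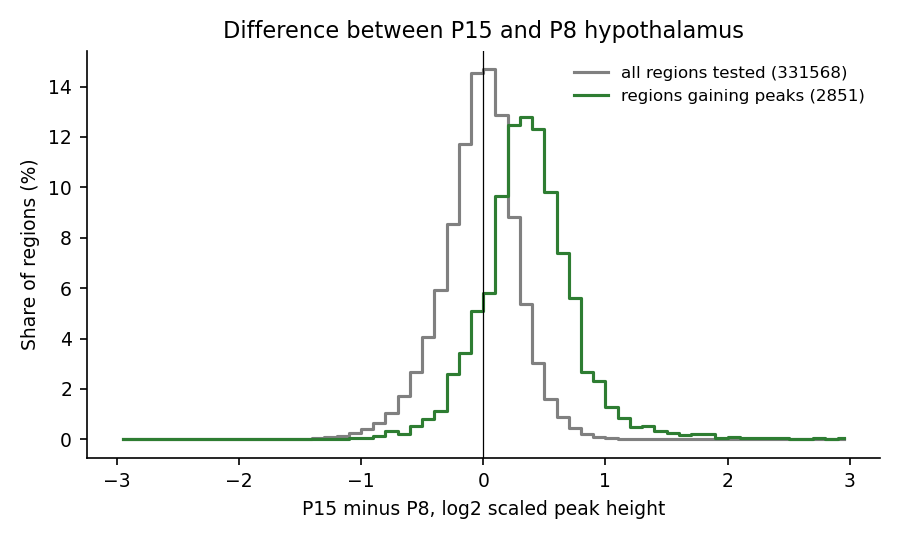
Distribution of the P15 minus P8 difference in log2 scaled peak height (horizontal axis) for the 2851 tested regions gaining peaks and for all 331568 tested regions, as a share of each (percent, vertical axis), with values beyond 3 drawn in the last step. The regions gaining peaks were shifted to a median of 0.36, and all tested regions were centred on -0.01.

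The 49 regions higher at P15 made up 33.6% of the 146 regions that passed in that direction. They rose by 1.06 to 3.99 on the log2 scale (median 1.60), and their mean number of samples with a peak was 0.408 of 12 at P1, 4.98 at P8, 11.7 at P15 and 11.7 at P22. By course, 32 were middle and 17 early. In WBC, 44 of the 49 had no peak in any of the 11 samples. Their local background at P22, the fragment density that the peak caller expected at the region, had a median of 4.76 fragments, against 2.91 for the other 2815 regions, and their mean scaled height at P22 had a median of 31.96 fragments, against 18.6. Whether these regions lie in duplicated sequence that is merged in the Rn6 build was not assessed here. On the scale of the heights, the local background at the peaks called there had a median above the floor of 6.36 fragments at 7 of the 47 regions with a P8 peak and at 19 of the 49 at P15. Where it did, a sample without a peak was set below the background, and the size and rank of the fitted difference depend in part on the floor.

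The largest fitted difference between P8 and P15 was at chr2:161576073-161576524 (452 bp). At P1, 0 of 12 samples had a peak. At P8, 2 of 12 samples had one, PF 8 at 57.5 fragments and PAE 8 at 48.3 fragments, and at P15 all 12 samples had one, from 66.4 to 134.8 fragments with a median of 102.8. At P22, the 12 samples ran from 89.5 to 144.0 fragments with a median of 112.7, and no WBC sample had a peak. The heights at P8 and P15 did not overlap, and the fitted difference was 3.99 ± 0.33 (log2, SE; limma, FDR-adjusted p = 1.44e-07). Both P8 samples with a peak were of the Dev-5 cohort, so the fitted value sets P15 against 6 Dev-4 P8 samples that were all at the floor of 6.36 fragments, and against all 12 P8 samples the difference of the means was 3.48. The local background in samples with a peak was 13.7 and 14.3 fragments at P8 and 17.2 to 26.9 at P15, all above the floor, so 3.99 is not a measured fold change. Fold enrichment overlapped between the ages, at 3.39 and 3.83 in the 2 P8 samples with a peak and from 3.49 to 4.97 (median 4.30) at P15.

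Next in size was chr19:27823295-27824540 (1246 bp). A peak was present in 0 of 12 samples at P1, in 1 of 12 at P8 at 16.7 fragments, in 11 of 12 at P15 from 35.0 to 62.1 fragments with a median of 50.7, and in 11 of 12 at P22 from 36.4 to 91.7 fragments with a median of 59.1. The single P8 peak was lower than every P15 peak, and the difference was 2.70 ± 0.31 (log2, SE; limma, FDR-adjusted p = 2.70e-05). All 6 Dev-4 P8 samples were at the floor here too, below the local background of 8.55 fragments at the single P8 peak and of 8.46 to 15.6 at P15, so this value is likewise no measured fold change.

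At chr1:39262875-39263465 (591 bp), 5 of 12 samples at P8 had a peak, from 17.5 to 25.0 fragments with a median of 18.4. All 12 P15 samples (31.0 to 54.5, median 42.5) and all 12 P22 samples (31.3 to 55.0, median 46.1) lay above them. The difference between P15 and P8 was 2.48 ± 0.25 (log2, SE; limma, FDR-adjusted p = 4.64e-06), or 2.05 as the difference of the means with all 12 P8 samples. Of the 6 Dev-4 P8 samples behind the fitted value, 1 had a peak and the others were at the floor, so its size depends in part on the floor. Fold enrichment barely overlapped, at 3.06 to 4.07 at P8 and 4.03 to 6.08 at P15.

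The region at chr19:311126-311887 (762 bp) had no peak in any P1 or P8 sample. At P15, 9 of 12 samples had one, from 36.8 to 70.8 fragments with a median of 52.8, and at P22, 10 of 12 did, from 37.5 to 90.6 with a median of 68.8. The fitted difference was 2.33 ± 0.44 (log2, SE; limma, FDR-adjusted p = 0.0238), with all 12 P8 samples at the floor and a local background of 10.7 to 17.9 fragments at P15. Median fold enrichment was 3.83 at P15 and 3.49 at P22.

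The last of the 5 with the largest fitted differences, chr20:5344311-5344955 (645 bp), had peaks in 5 of 12 samples at P8 (21.4 to 26.7 fragments, median 25.3), in 12 of 12 at P15 (30.3 to 70.1, median 49.0) and in 12 of 12 at P22 (32.4 to 94.1, median 58.2). The P15 minus P8 difference was 2.28 ± 0.32 (log2, SE; limma, FDR-adjusted p = 0.000503), while fold enrichment overlapped, at 4.99 to 6.78 at P8 and 4.26 to 8.80 at P15. Of the 6 Dev-4 P8 samples behind this fitted difference, 2 had a peak and the others were at the floor, so its size too depends in part on the floor. None of the 5 had a peak in any P1 sample or in the 11 WBC samples.

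The 49 regions lay on 13 of the 20 autosomes. On chromosome 19, 8 of 96 regions gaining peaks passed (8.33%), beside 0.353% of all tested regions on that chromosome. On chromosome 7, 11 of 164 did (6.71%, beside 0.117%), on chromosome 9, 6 of 145 (4.14%, beside 0.117%), and on chromosome 1, 2 of 277 (0.722%, beside 0.0208%). Of these 4 chromosomes, chromosome 19 thus had the largest share and chromosome 1 the smallest both among the regions gaining peaks and among all tested regions. Other chromosomes did not keep to such an order. On chromosome 11, 2 of 95 passed (2.11%, beside 0.0178%), on chromosome 20, 3 of 75 (4.00%, beside 0.0476%), and on chromosome 12, 1 of 74 (1.35%, beside 0.0827%). Of the 49, 33 (67.3%) had another of the 49 within 1 Mb, and of the 97 other regions that passed in that direction, 76 (78.4%) had another of the 97 within 1 Mb. Grouping those less than 2 Mb apart gave 5 stretches with at least 3 of them, a grouping chosen after the values were seen. The difference between P8 and P15 in these stretches follows in part from the calls that defined them and is given as a description.

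The group with the most of these regions, chr19:27812695-29183735 (1.37 Mb), held 10 of the regions gaining peaks, of which 6 passed the test. Per sample, 0 to 1 of the 10 had a peak at P1, 3 to 9 at P8 (median 5), 7 to 10 at P15 (median 10), 8 to 10 at P22 (median 10) and 0 to 1 in WBC. The P8 and P15 samples overlapped, and the P1 and P22 counts follow from the selection.

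At chr7:514694-2202142 (1.69 Mb), 4 of 6 regions gaining peaks passed. Samples had 0 to 1 of the 6 peaks at P1, 0 to 4 at P8 (median 2.5), 5 to 6 at P15, 5 to 6 at P22 and 0 in WBC. The P8 and P15 samples did not overlap.

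All 4 of the regions in chr7:99227855-99517207 (0.289 Mb) passed. Samples had 0 to 1 of the 4 peaks at P1 and 1 to 4 at P8 (median 2), every P15 and P22 sample had all 4, and every WBC sample had 0. In this stretch, 1 P8 sample, PF 8, already had all 4 peaks.

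The stretch at chr9:11552920-12427419 (0.875 Mb) held 5 regions gaining peaks, of which 3 passed. At P8, 0 to 2 of the 5 peaks were present per sample (median 1), and at P15, 3 to 5 (median 5).

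In chr20:4800652-5379540 (0.579 Mb), 3 of 5 passed. Per sample, 0 to 4 of the 5 peaks were present at P8 (median 3) and 4 to 5 at P15 (median 5). In the WBC samples, 0 to 1 of the 5 peaks were present in each of these last 2 stretches.

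**Figure D4:**
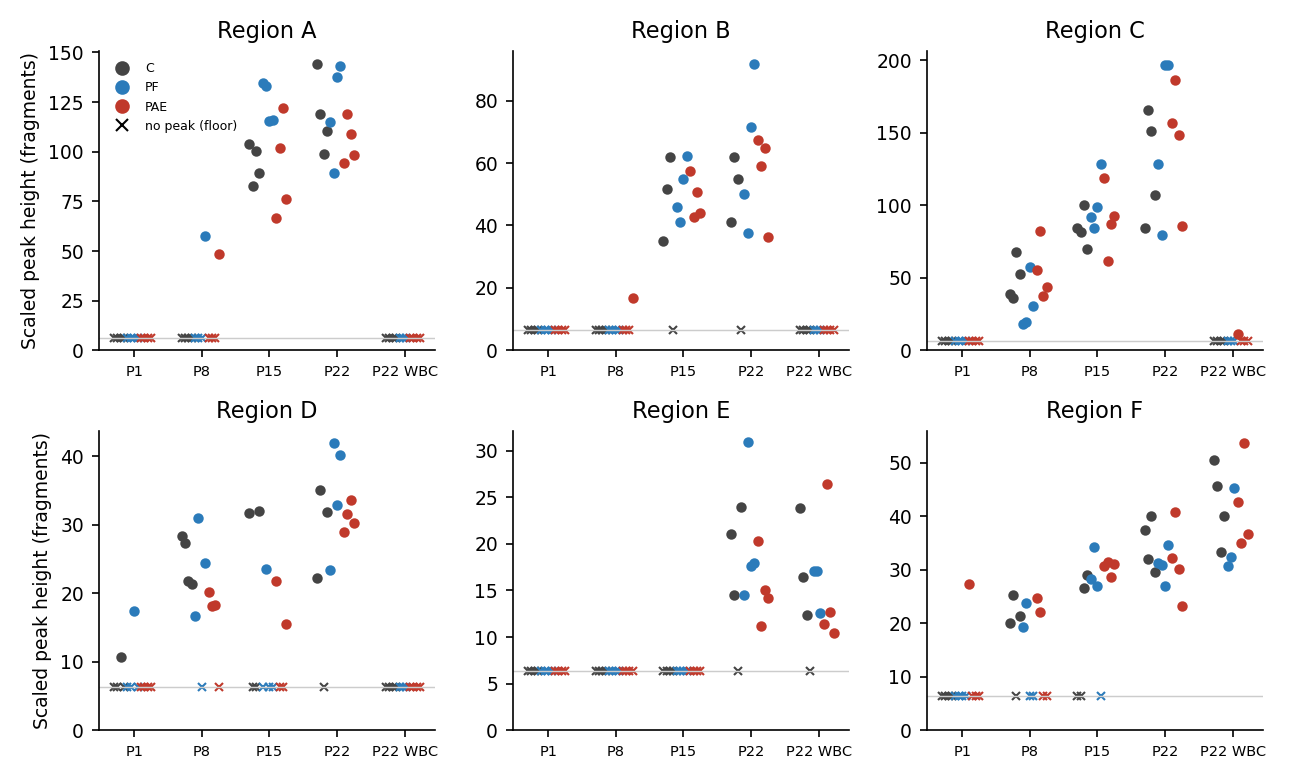
Scaled peak height in fragments (vertical axis, starting at 0) in every sample by age and tissue at 6 regions, coloured by prenatal group, with crosses at the floor for samples without a peak and the PF 15 WBC sample left out. Regions A (chr2:161576073-161576524) and B (chr19:27823295-27824540) rose between P8 and P15, C (chr19:28126493-28128613) was present from P8, D (chr12:51264696-51265661) had fewer peaks at P15 than at P8, E (chr1:278077073-278078337) had peaks in P22 hypothalamus and WBC, and F (chr20:47102588-47104036) had a peak in all 11 WBC samples.

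At the other end, 2 regions had the most negative P15 minus P8 differences, and neither passed the test. At chr12:51264696-51265661 (966 bp), 10 of 12 P8 samples had a peak (16.7 to 31.0 fragments, median 21.6), 5 of 12 P15 samples (15.5 to 31.99, median 23.5) and 11 of 12 P22 samples (22.2 to 42.0, median 31.9). The heights of the peaks present at P8 and P15 overlapped, and the difference was -1.05 ± 0.38 (log2, SE; limma, FDR-adjusted p = 0.480). At chr3:165142529-165143149 (621 bp), a peak was present in 7 of 12 samples at P8, 3 of 12 at P15 and 12 of 12 at P22, with a difference of -1.01 ± 0.34 (log2, SE; limma, FDR-adjusted p = 0.411).

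Among the early regions, 4 were named for the most P8 samples with a peak, all with 12 of 12. Region chr19:28126493-28128613 (2121 bp), within the chromosome 19 stretch, rose from 18.4 to 82.2 fragments at P8 (median 41.1) to 61.6 to 128.5 at P15 (median 89.5) and 79.6 to 196.9 at P22 (median 149.8). Its P15 minus P8 difference was 1.31 ± 0.21 (log2, SE; limma, FDR-adjusted p = 0.00434), while fold enrichment overlapped, at 3.13 to 5.48 at P8 and 4.42 to 6.12 at P15. At this region no P1 sample had a peak, and 1 WBC sample had one at 11.4 fragments.

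Region chr2:156761538-156763057 (1520 bp) had peaks in 2 P1 samples at 16.01 and 18.2 fragments, and in all 12 samples at each later age, with medians of 41.8 at P8 (33.3 to 52.6), 85.5 at P15 (59.5 to 103.7) and 102.6 at P22 (78.6 to 130.9). The P8 and P15 ranges of height did not overlap, and the difference was 1.06 ± 0.11 (log2, SE; limma, FDR-adjusted p = 4.64e-06). Those of fold enrichment did, at 4.54 to 6.71 at P8 and 5.39 to 8.07 at P15. No WBC sample had a peak. This region sat between 2 others gaining peaks, chr2:156754907-156755401 and chr2:156765249-156766107.

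The other 2 of these early regions did not differ detectably between P8 and P15. At chr6:43132840-43134196 (1357 bp), the median height was 28.3 fragments at P8 and 30.5 at P15, with 54.3 at P22 and no WBC peak (difference 0.11 ± 0.19, log2, SE; limma, FDR-adjusted p = 0.908). At chr16:8133898-8134820 (923 bp), it was 24.7 at P8, 26.8 at P15 in 11 of 12 samples and 31.0 at P22, and 2 WBC samples had peaks at 7.8 and 10.5 fragments (difference -0.13 ± 0.22, log2, SE; limma, FDR-adjusted p = 0.906).

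Late regions had a peak in a mean of 2.76 of 12 samples at P8 and 3.89 of 12 at P15. Those named were picked for the fewest P8 and P15 peaks and do not stand for the class. At chr1:278077073-278078337 (1265 bp), 0 of 36 samples from P1, P8 and P15 had a peak, whereas 11 of 12 P22 hypothalami (11.2 to 30.9 fragments, median 17.6) and 10 of 11 WBC samples (10.5 to 26.5, median 14.6) did. Its peaks thus followed meDIP round 1 in both tissues, and age and round cannot be told apart there. Of the 426 late regions, 8 (1.88%) had a peak in 10 or 11 WBC samples, against 368 (86.4%) with a peak in 0 or 1.

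The other 3 late regions with the fewest P8 and P15 peaks were low at P22. Region chr1:109081329-109082094 (766 bp) had 1 peak at P8 (8.2 fragments), 0 at P15 and 10 at P22 (9.3 to 17.7, median 12.8), with no WBC peak. Region chr3:142635483-142636125 (643 bp) had 0 at P8, 1 at P15 (13.1 fragments) and 10 at P22 (8.1 to 13.3, median 11.4), with 1 WBC peak at 8.6. Region chr9:11406569-11407591 (1023 bp) had 0 at P8, 1 at P15 (9.1 fragments) and 11 at P22 (7.1 to 12.3, median 8.8), with no WBC peak. These heights lay near the floor of 6.36 fragments.

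Most of the regions had no peak in WBC. A mean of 9.36% ± 1.18 (SD, n = 11) of the 2864 regions had a peak per WBC sample, from 6.67% to 11.1%, whereas 31.6% ± 2.16 of all merged regions did. All 11 WBC samples thus lay below the lowest P8 hypothalamus (32.6%). Per region, 1998 (69.8%) had a peak in 0 of 11 WBC samples and 326 (11.4%) in 1. A peak was present in 2 to 9 WBC samples at 466 regions (16.3%) and in 10 or 11 at 74 (2.58%). Among all 70845 regions with a peak in at least 10 P22 hypothalami, 8.29% had a peak in 0 or 1 WBC sample and 69.6% in 10 or 11. WBC were sequenced less deeply than P22 hypothalamus, and the part of depth in these shares was not tested.

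The WBC state varied with the number of P1 hypothalami that had a peak. Among regions with a peak in at least 10 P22 hypothalami, a peak in 0 or 1 WBC sample was found at 90.7% of those with 0 P1 samples (n = 1143), 79.6% of those with 1 (n = 874) and 69.8% of those with 2 (n = 847). Beyond the threshold, the share was 47.3% with 3 to 5 P1 samples (n = 3064), 15.8% with 6 to 9 (n = 8431) and 1.35% with 10 to 12 (n = 56486). The groups thus formed a gradient without a break at the threshold of 2 P1 samples.

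**Figure D5:**
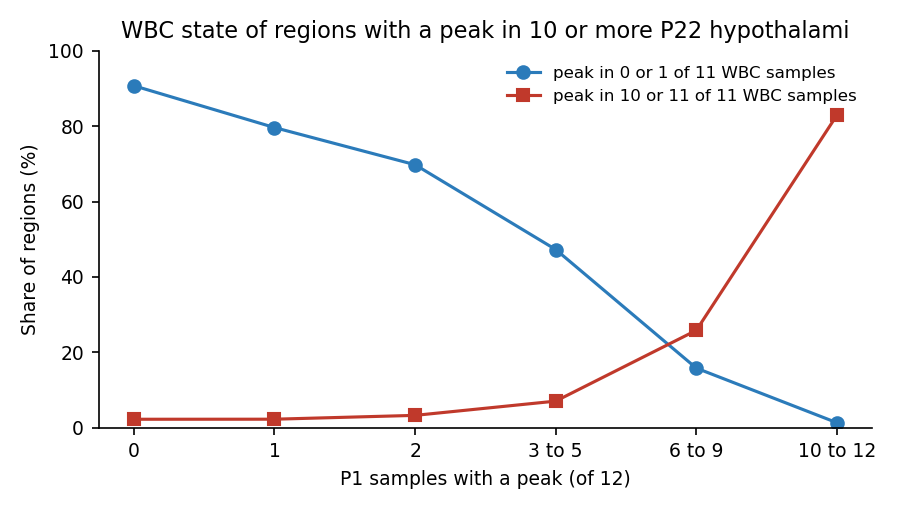
WBC state of regions with a peak in at least 10 of 12 P22 hypothalami (share of regions in percent, vertical axis) by the number of P1 hypothalami with a peak (horizontal axis). Regions with a peak in 0 or 1 of 11 WBC samples fell from 90.7% to 1.35%, and those with a peak in 10 or 11 rose from 2.27% to 82.9%, with the 2864 regions in the 3 groups on the left.

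By course, a peak in 0 or 1 WBC sample was found at 75.6% of early, 88.3% of middle and 86.4% of late regions. Regions with a peak in 10 or 11 WBC samples were longer (median 1279.5 bp, n = 74) than those with a peak in 0 or 1 (median 846 bp, n = 2324). These are lengths of the merged peaks, which WBC peaks can only extend, so length and WBC state are not independent.

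The 3 regions with the most WBC samples all had a peak in 11 of 11. At chr20:47102588-47104036 (1449 bp), WBC peaks ran from 30.6 to 53.7 fragments (median 40.1) and P22 hypothalamus peaks from 23.3 to 40.8 (median 31.6), with peaks in 1, 7 and 9 of 12 samples at P1, P8 and P15. At chr16:50697813-50698584 (772 bp), the WBC peaks ran from 15.5 to 31.6 (median 21.0) and those of P22 hypothalamus from 25.7 to 38.8 (median 31.1), with 2, 8 and 12 of 12 samples at the younger ages. At chr15:103493783-103495061 (1279 bp), WBC peaks ran from 21.6 to 33.7 (median 27.4) and those of P22 hypothalamus from 21.2 to 40.0 (median 29.9), with 2, 10 and 8 of 12. The 2 tissues overlapped in height at all 3. None of the 3 passed the P15 vs. P8 test (limma, FDR-adjusted p = 0.932, 0.523 and 0.865).

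The 3 tallest at P22 among the 1998 with a peak in 0 of 11 WBC samples were chr2:161576073-161576524 and chr2:156761538-156763057, described above, and chr9:12450706-12451125 (420 bp). The last had peaks in 2 P1 samples (22.7 and 26.3 fragments), 10 of 12 at P8 (34.2 to 76.1, median 46.2), 12 of 12 at P15 (50.7 to 110.8, median 68.5) and 12 of 12 at P22 (67.1 to 175.1, median 100.6). Its P15 minus P8 difference was 0.99 ± 0.31 (log2, SE), which did not pass the test (limma, FDR-adjusted p = 0.355).

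Of the 5728 merged regions immediately beside them, 36 (0.628%) were themselves regions gaining peaks, against 0.470% of all neighbours. The flanking regions lost samples with a peak between P1 and P22 on average (-0.882 of 12 samples), as did the neighbours of all merged regions (-0.718). Within 1 Mb, 88.8% of the 2864 had another region gaining peaks. Within 10 kb, 98 (3.42%) had another, in 43 pairs and 4 groups of 3. The groups of 3 lay at chr2:156754907-156766107, chr4:116963079-116975363, chr7:22008399-22018564 and chr13:26671527-26690055. By chromosome, the regions made up from 0.397% (chromosome 18) to 0.564% (chromosome 19) of all merged regions.

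The shares of the prenatal groups were compared at each age. At P8, C animals had a peak at 42.3% ± 8.75 of the regions, PF animals at 51.9% ± 5.08 and PAE animals at 49.7% ± 13.2 (SD, n = 4 each). At P15, the C share was 64.3% ± 5.90, the PF share 65.6% ± 8.79 and the PAE share 61.7% ± 11.6. At P22, the same order gave 87.1% ± 2.95, 91.9% ± 0.904 and 91.4% ± 3.80, and at P1, 6.46% ± 1.74, 8.95% ± 3.93 and 7.01% ± 0.507. The ranges of the 3 groups overlapped at P8 and at P15. The P1 and P22 shares are values that chose the regions and are given as a description. WBC of C animals had a share of 9.55% ± 1.08 (n = 4), those of PF animals 9.14% ± 2.19 (n = 3) and those of PAE animals 9.34% ± 0.406 (n = 4).

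No region gaining peaks differed between prenatal groups across the 4 ages at an FDR < 0.05. The test was a limma model of log2 scaled height over 48 hypothalami with DNA extraction round and breeding cohort as covariates, in which all 2864 regions were among the 405208 tested. For PAE vs. C, 0 regions passed (0% of all tested), and at an unadjusted p < 0.05, 81 were higher in PAE (2.83%, against 2.41% of all) and 36 lower (1.26%, against 2.55%). For PAE vs. PF, 0 passed (0% of all tested), with 25 higher (0.873%, against 2.35%) and 75 lower (2.62%, against 2.55%) at an unadjusted p < 0.05. For PF vs. C, 0 passed (0% of all tested), with 151 higher in PF (5.27%, against 2.74%) and 22 lower (0.768%, against 2.73%) at an unadjusted p < 0.05. The P1 and P22 samples in this fit are those that chose the regions, which limits the group differences possible at those ages. In the 24 P8 and P15 hypothalami alone, 0 of the 2851 regions tested passed in each contrast, against 0, 0 and 1 of all 331568 for PAE vs. C, PAE vs. PF and PF vs. C. At an unadjusted p < 0.05 in these 24, 77 were higher in PAE than in C (2.70%, against 2.32% of all) and 42 lower (1.47%, against 2.52%). For PAE vs. PF, 41 were higher (1.44%, against 2.37%) and 75 lower (2.63%, against 2.26%). For PF vs. C, 113 were higher in PF (3.96%, against 2.37%) and 30 lower (1.05%, against 2.67%), and the median difference was 0.08 on the log2 scale, against -0.01 for all tested regions. Over the 4 ages, Fisher's exact test on peak presence called 0 of the regions in each contrast, with 11 (0.384%, against 1.14% of all regions it tested), 8 (0.279%, against 1.09%) and 11 (0.384%, against 1.16%) at an unadjusted p < 0.05 for PAE vs. C, PAE vs. PF and PF vs. C.

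The region with the smallest p in PAE vs. C was chr15:34450307-34451321 (1015 bp). Of 16 hypothalami per group, 13 had a peak in C (13.6 to 32.8 fragments, median 25.8), 8 in PF (16.8 to 35.4, median 24.5) and 5 in PAE (18.1 to 28.3, median 25.5). At P15, all 4 C samples and 0 of 4 PAE samples had one. The groups overlapped in the height of the peaks present, and the difference was -1.02 ± 0.25 (log2, SE; limma, FDR-adjusted p = 0.965).

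For PAE vs. PF, it was chr7:35526218-35527161 (944 bp), with a peak in 5 of 16 PAE, 13 of 16 PF and 9 of 16 C hypothalami (difference -0.78 ± 0.20, log2, SE; limma, FDR-adjusted p = 0.971). For PF vs. C, it was chr9:111798301-111799833 (1533 bp), a late region with a peak in 10 of 16 PF, 7 of 16 PAE and 2 of 16 C hypothalami (difference 0.86 ± 0.22, log2, SE; limma, FDR-adjusted p = 0.904). At that region, 0 of 4 C samples had a peak at P1, P8 and P15 and 2 of 4 at P22, where all 4 PF and all 4 PAE samples had one.

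Whether the course over age differed between prenatal groups was tested as the group by age interaction in the same 48 hypothalami, with the same limit from the P1 and P22 samples. None of the 2864 regions passed at an FDR < 0.05, against 0.0383% of all tested regions (155 of 405208), and 100 had an unadjusted p < 0.05 (3.49%, against 5.68%). The smallest p was at chr7:61902998-61903533 (536 bp; limma, FDR-adjusted p = 0.144). At P8, 2 of 4 C, 4 of 4 PF and 4 of 4 PAE samples had a peak there. At P15, 0 of 4 C samples had one, whereas all 4 PF (21.2 to 30.3 fragments) and all 4 PAE samples (20.8 to 32.5) did. At P22, all 12 samples had a peak, with median heights of 29.5 fragments among C, 37.2 among PF and 42.5 among PAE animals. The region was chosen for its p, which did not pass, and its P22 peaks follow from the selection. With only peaks of q under 0.001, 2 of 2863 regions passed the interaction test, against 172 of all 351607 tested. Without the animals numbered 11, 1 passed.

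In WBC, 387 of the 2864 regions had peaks in 3 or more of 11 samples and were tested with breeding cohort as covariate. At an FDR < 0.05, 0 passed in each contrast, against 2 of all 256224 tested regions for PAE vs. C (0.000781% higher and 0% lower in PAE), 6 for PAE vs. PF (0.00234% higher and 0% lower in PAE) and 9 for PF vs. C (0.000781% higher and 0.00273% lower in PF). At an unadjusted p < 0.05, 25 (6.46%, against 4.58% of all), 23 (5.94%, against 5.08%) and 24 (6.20%, against 4.88%) did so in these 3 contrasts. Fisher's exact test called 0 at an FDR < 0.05 and, at an unadjusted p < 0.05, 3 of 296 (1.01%, against 0.351%), 2 of 263 (0.760%, against 0.814%) and 3 of 275 (1.09%, against 0.814%). The smallest p in both PAE contrasts was at chr14:35027119-35028251 (1133 bp). All 4 C WBC samples had a peak there, at 15.3, 13.0, 17.2 and 14.6 fragments, as did all 3 PF samples at 19.8, 23.0 and 18.9 fragments, and 0 of 4 PAE samples. The differences were -1.23 ± 0.32 for PAE vs. C and -1.69 ± 0.35 for PAE vs. PF (log2, SE; limma, FDR-adjusted p = 0.979 and 0.551). In hypothalamus, a peak was present at this region in 3 of 4 PAE, 2 of 4 C and 1 of 4 PF samples at P8, and in 0 of 4 PAE, 3 of 4 C and 3 of 4 PF samples at P15. At P22, where the selection asks for a peak, it was present in 4 PAE, 3 C and 3 PF samples. For PF vs. C, the smallest p was at chr7:37539376-37539967 (592 bp), with WBC peaks in 3 of 4 C samples (15.3, 13.0 and 12.4 fragments) and 0 of 3 PF samples (difference -0.86 ± 0.28, log2, SE; limma, FDR-adjusted p = 0.987).

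At the edge of the selection, 361 regions had a peak in exactly 10 P22 and 2 P1 samples, and their mean number of samples with a peak was 6.28 of 12 at P8, 7.05 of 12 at P15 and 1.62 of 11 in WBC. Just outside, the 1705 regions with 9 P22 samples and at most 2 P1 samples had means of 4.23, 5.71 and 1.24, and the 945 regions with at least 10 P22 samples and 3 P1 samples had 7.63, 8.26 and 2.08. The 273 regions with a peak in all 12 P22 and in 0 P1 samples had means of 6.00, 9.12 and 0.425.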

How the data were processed

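The authors immunoprecipitated methylated DNA, sequenced it, aligned reads to Rn6 with BWA, filtered them with SAMtools and called peaks in each sample separately with MACS2 2.1.0.20140616 (q 0.05, no input control, summits split). The deposited peak lists give pileup at the summit (a coverage signal), fold enrichment (a ratio over local background) and −log10 p and q values; the peaks bound the measurement, since signal outside a called peak is not given. Here summits were collapsed, peaks of all 60 samples were merged at 1 bp overlap, and pileup was scaled by the median ratio over the 19715 regions found in all samples (factors 0.708 to 1.29), with a floor at 6.36 fragments, the median over samples of the lowest scaled height. Log2 heights were tested with limma 3.58.1 (R 4.3.3; moderated, intensity trend, Benjamini-Hochberg FDR over all tested regions) where 3 or more of the fitted samples had a peak; code was tested on simulated data. Groups came from the sample labels. Depth limits peak detection, and P15 was the deepest age.

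The regions and lists were chosen with earlier results of these data known. Named regions were the 5 largest fitted rises among those passing P15 vs. P8 and the 2 most negative differences; the 4 late regions with the fewest P8 and P15 samples and the 4 early regions with the most P8 samples; the 3 with the most and 3 with the fewest WBC samples, ties by P22 height; and the smallest p in each prenatal contrast. None overlapped a region that the study annotates with a gene symbol. Alternatives were fold enrichment, stricter peaks, other filters, floor, normalization, covariates, Fisher's exact test, a replicate block and leaving out each replicate number. Gene annotation and sequences of the Rn6 build were not used here.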

Additional observations from a re-analysis of the deposited data

Results flagged for a closer look

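The PF 15 WBC sample, which the study removed, had a peak at 1422 of the 2864 regions (49.7%), against 6.67% to 11.1% in the other 11 WBC samples, which made it an outlier among the 4 PF WBC samples by the gap to its nearest neighbour over the range. Its share lay between the lowest and highest P8 hypothalami (32.6% and 64.8%) and below every P15 and P22 hypothalamus. By course, it had a peak at 65.2% of early, 36.4% of middle and 29.3% of late regions. Of the 15 groups of 4 samples examined for the share of the regions with a peak, no other held such a sample, and chance flags about 1 group in 20.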

How the results depend on the processing

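Stricter selection changed the set. With at least 11 P22 and at most 1 P1 samples, 1139 regions qualified, and with 12 and 0, 273. The mean share with a peak per WBC sample then moved from 9.36% to 6.56% and 3.86%, and to 12.7% with PF 15 WBC kept, and the P15 minus P8 gain in the mean share moved from 15.9 percentage points to 26.0 with 12 and 0. Leaving out each replicate number gave 2170 to 2864 regions, gains of 14.1 to 17.3 points and WBC shares of 8.43% to 9.91%. With peaks of q under 0.001, 2063 regions qualified, the gain was 10.5 points and the WBC share 8.49%. The other settings moved these 3 values by less than 1.5 times.

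For P15 vs. P8, the 49 regions called higher became 22 with fold enrichment, 116 without breeding cohort, 0 with Fisher's exact test and 20 to 52 without single replicate numbers, with 0 called lower in every setting; the cause was not tested. The median difference of the regions stayed positive in all of these. For the prenatal contrasts, 0 regions passed in every setting run. For the group by age interaction, 2 passed with peaks of q under 0.001, and 0 to 1 without single replicate numbers, the 1 without number 11.

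With the replicate number as a block, 0 regions passed in any prenatal contrast, in the interaction or in WBC. Same-numbered hypothalami of an age shared a breeding cohort and often an extraction round, and they did not deviate together (mean r 0.00257 over 48 pairs, highest 0.0279), and the numbers were not treated as pairs.

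Depth, absent input control and called peaks alone limit what a missing peak shows, and heights near the floor carry little information.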
